A study of Mus musculus with 4 samples.

Results

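The genes described here carry out DNA replication and mitosis, and 42 were listed by name: 21 replication genes, 10 cyclins and cyclin-dependent kinases (Cdks) and 11 mitosis genes. A listed gene was measured where the annotation of the array assigned a probe set to that gene alone, and its brightest probe set stood for it. This gave 41 of 42 genes, out of 18193 genes with such a probe set, and 98 of 34945 probe sets. The annotation table used here assigns no probe set to Ccnb1, the gene for cyclin B1, which is therefore not analysed here.

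RNA from 4 mouse embryonic stem cell lines was measured, with 1 Affymetrix Mouse Genome array each, to find genes regulated by UTX. UTX is a histone demethylase that removes methyl groups from lysine 27 of histone H3 and is encoded by the X-linked gene Kdm6a. The 2 groups were UTX conditional knockout (cKO lines 1 and 2), which serve as the controls, and UTX knockout (KO lines 1 and 2), and all 4 lines were maintained on irradiated fibroblast feeders in medium with serum and LIF, passaged on gelatin to remove the feeders, and collected after an overnight culture on gelatin. How the KO lines were derived, whether each line is 1 clone, and whether a line number is shared between the groups are not given in the sources used here. Nothing says that the arrays came from separate cultures on separate days, so the spread within a group may be partly technical. A p-value weighs the difference between groups against this spread, which the fit draws toward a trend over all genes tested.

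Replication starts in G1 phase, when the origin recognition complex, Cdc6 and Cdt1 load the ring-shaped MCM helicase onto DNA, a step called licensing. In S phase Cdc45 and the GINS complex join the helicase, primase and polymerase alpha lay down primers, and the clamp loader RFC sets the sliding clamp PCNA on the DNA. D- and E-type cyclins act before and at the start of S phase, cyclin A during it and cyclin B at entry into mitosis. There the spindle checkpoint kinases hold the cell until its chromosomes are attached, and Cdc20 then activates the ubiquitin ligase that starts their separation. Mouse embryonic stem cells divide fast, have a short G1 phase and express many of these genes throughout the cycle.

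Transcription of these genes is known to run through E2F factors, which bind the promoters of many replication genes, and through the CHR element (cell cycle genes homology region) together with CCAAT boxes in many mitotic genes. The 250 bases before the annotated start are shown for 5 genes: Orc1 and Mcm6 as licensing genes with E2F letters, Cdk1 with both kinds of element, and Ccnb2 and Bub1 because they had the largest positive differences between KO and cKO. The sequences are from RefSeq, build GRCm38.p6, 5′ to 3′ on the strand of the gene. They lie at chr4:108579204-108579453 on the plus strand for Orc1 and, on the minus strand, at chr1:128359706-128359955 for Mcm6, chr10:69352913-69353162 for Cdk1, chr9:70421555-70421804 for Ccnb2 and chr2:127831860-127832109 for Bub1. Capitals mark an E2F match, the CHR letters or a CCAAT box, on either strand.
Orc1: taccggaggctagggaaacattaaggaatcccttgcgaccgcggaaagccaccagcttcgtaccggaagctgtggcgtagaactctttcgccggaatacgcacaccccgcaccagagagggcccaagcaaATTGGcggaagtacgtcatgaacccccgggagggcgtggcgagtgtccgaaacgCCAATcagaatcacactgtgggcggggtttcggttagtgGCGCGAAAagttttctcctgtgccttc
Mcm6: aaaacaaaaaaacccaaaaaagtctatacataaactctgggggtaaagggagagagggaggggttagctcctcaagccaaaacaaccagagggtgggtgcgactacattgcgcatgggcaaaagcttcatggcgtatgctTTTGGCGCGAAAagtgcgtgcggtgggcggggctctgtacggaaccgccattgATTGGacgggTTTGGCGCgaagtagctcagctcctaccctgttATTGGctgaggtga
Cdk1: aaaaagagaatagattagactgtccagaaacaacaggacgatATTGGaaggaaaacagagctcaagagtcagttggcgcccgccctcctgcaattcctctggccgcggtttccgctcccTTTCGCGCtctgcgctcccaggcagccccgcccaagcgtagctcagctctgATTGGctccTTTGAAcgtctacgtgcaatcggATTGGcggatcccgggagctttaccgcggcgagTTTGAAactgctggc
Ccnb2: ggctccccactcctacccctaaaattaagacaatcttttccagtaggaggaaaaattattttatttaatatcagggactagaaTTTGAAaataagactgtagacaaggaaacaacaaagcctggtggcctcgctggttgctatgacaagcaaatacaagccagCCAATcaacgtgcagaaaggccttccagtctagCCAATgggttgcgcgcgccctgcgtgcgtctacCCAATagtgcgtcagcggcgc
Bub1: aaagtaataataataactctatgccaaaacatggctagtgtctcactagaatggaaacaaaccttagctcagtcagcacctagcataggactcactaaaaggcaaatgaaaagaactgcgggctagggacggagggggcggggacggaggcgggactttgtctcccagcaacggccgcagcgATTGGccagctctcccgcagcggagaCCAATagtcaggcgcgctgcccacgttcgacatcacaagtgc

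The E2F motif searched was TTTCGCGC, TTTGGCGC, TTTCCCGC or TTTGCCGC, the CHR motif TTTGAA and the CCAAT box CCAAT, each on both strands, and matches may overlap. A window of 250 bases was available for 32 of the 41 genes (18 replication genes, 5 cyclins and Cdks and 9 mitosis genes). E2F letters stood in 7 of 18 replication genes, 2 of 5 cyclins and Cdks (Cdk1 and Cdk2) and 0 of 9 mitosis genes, against 2.16% of all 27025 genes with a window. In Mcm6 the 3 matches began at positions -110, -106 and -47 from the start, and the first pair overlapped. CHR letters stood in 2 of 18 replication genes, 2 of 5 cyclins and Cdks (Cdk1 and Ccnb2) and 3 of 9 mitosis genes (Cdc20, Top2a and Kif11), against 18.3% of all genes. A CCAAT box stood in 15 of 18, 4 of 5 and 8 of 9, against 37.5%, with 3 boxes each in Cdk1 and Ccnb2. A match is only a run of letters, and an absent one says only that these letters are not in this window.

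The 4 arrays were alike in RNA quality, and the labelled cell type matched its markers. The ratio of 3′ to 5′ signal ran from 0.795 to 0.838 for the Gapdh control. The median signal of the line 1 arrays was 76.6 (cKO) and 81.6 (KO), above the 64.4 and 64.9 of the line 2 arrays. The 8 embryonic stem cell markers, Pou5f1 and Nanog among them, summed to between 77328 and 87794 on every array, but single markers varied more. Nanog read 5533 and 2969 in the cKO lines, then 8237 and 5077 in the KO lines. Both KO values lay above both cKO values for 3 of 8 (Sox2, Zfp42 and Fgf4), against 21.4% of all genes tested. They lay below for 1 of 8 (Utf1), against 21.2%. In limma 0 of 8 passed an adjusted p under 0.05, against 2.2% of all genes. Of 14 fibroblast markers, 13 had a probe set. Their signals summed to 4079 in cKO line 1 and 2831 in cKO line 2, while the KO lines had 1740 and 1820. Both KO values lay below both cKO values for 10 of 13, some of which were too dim to be tested. Among the 9 tested markers this held for 8, against 21.2% of all genes tested. In limma 2 of these 9 passed an adjusted p under 0.05 with lower values in KO, against 1.57% of all genes. They were Col5a1 and Thy1 (adjusted p = 0.0295 and 0.0483). Lum, Prrx1 and Twist2 read at most 60.1 on any array. Kdm6a, the targeted gene, read 658 and 415 in the cKO lines but 265 and 198 in the KO lines (log2 fold change -1.17, SE 0.27, limma adjusted p = 0.0884). Whether its probe set lies inside the deleted part is not known here, so it checks the labels only in part.

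Replication and mitosis genes differed little between KO and cKO cells. All 41 measured genes lay above the filter that removed dim genes (mean signals below about 77.7), and in limma 0 of 41 passed an adjusted p under 0.05, against 2.2% of the 10916 genes tested. None had a log2 fold change of 1 or more in size, against 3.48% of all genes. At an unadjusted p under 0.05 there were 3 of 41, against 13.8% of all genes. Of these, Ccnb2 and Bub1 had positive values (5.92% of all genes) and Orc2 a negative value (7.91% of all genes). The smallest adjusted p was 0.131, for Ccnb2. The absolute log2 fold change had a median of 0.10 over the 41 genes and 0.17 over all genes tested. These genes were bright, with 39 of 41 above the median signal of tested genes, and bright probe sets have a smaller spread: the median SE was 0.14 for the 41 genes and 0.19 for all. The part of brightness in the small differences was not tested.

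A missed threshold does not show that a gene is unchanged, so the 95% interval of each difference was taken from the same fit. It lay within 2-fold in both directions for 40 of 41 genes, against 79.6% of all genes, and within 1.5-fold for 30 of 41, against 42.1%. The exception at 2-fold was Cdk2, whose interval for the ratio of KO to cKO ran from 0.495 to 1.29. The highest of the 4 arrays was at most 1.2 times the lowest for 22 of 41 genes, and for 22.3% of all genes tested.

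**Figure D1:**
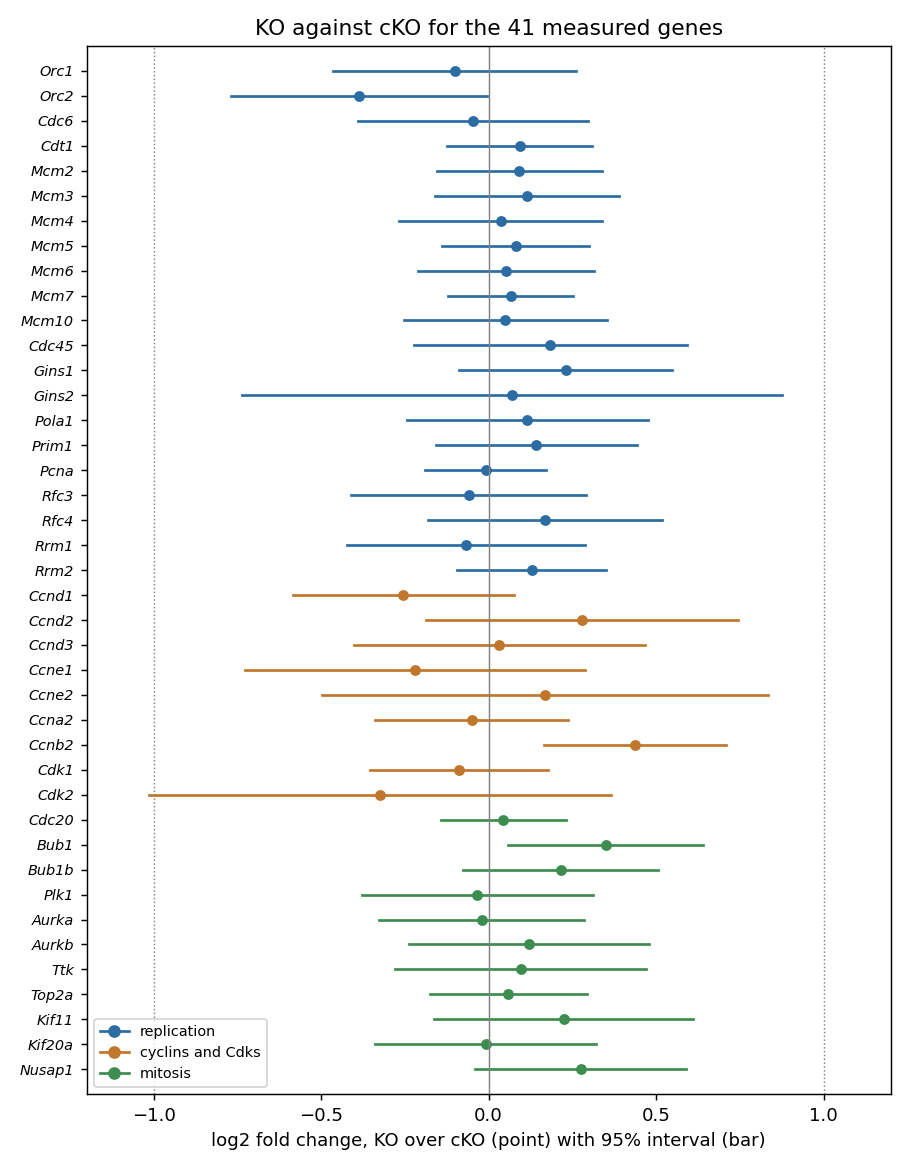
Log2 fold change of KO over cKO (point) with its 95% interval from limma (bar) for the 41 measured genes, by class; dotted lines mark 2-fold. The bars of all genes except Cdk2 stay inside the dotted lines, and only those of Orc2, Ccnb2 and Bub1 leave out 0.

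The MCM2-7 helicase, which unwinds DNA at the fork, had small differences on its brightest probe sets. Mcm7 read 13202 in cKO line 1, 13365 in the second cKO line, and 13984 and 13816 in the KO lines. The cKO mean was 13284 ± 115 and the KO mean 13900 ± 119 (SD, n = 2 lines). The KO values lay above the cKO values, but the log2 fold change was only 0.07 (SE 0.08, adjusted p = 0.81). Mcm5 read 8161, 8437, 8912 and 8642 in the same order of arrays (cKO lines 1 and 2, then KO lines 1 and 2, as in every list of 4 values below), and here too the groups did not overlap (0.08, 95% interval -0.14 to 0.30). Mcm2 read 6556, 6021, 6750 and 6643, again with KO above cKO (0.09). Dimmer probe sets of Mcm5 and Mcm2 overlapped, however, and gave -0.02 and -0.08. For the other subunits the groups overlapped. Mcm3 read 6553, 6352, 7583 and 6439, so that 1 array, KO line 1, carried its higher KO mean (0.12). Mcm4 read 5210, 4632, 5416 and 4686, higher in line 1 of both groups (0.04), and Mcm6 read 4984, 5400, 5515 and 5234 (0.05). None of the 6 subunits had a 95% interval that reached beyond 0.39 or -0.27 on its brightest probe set. Dimmer probe sets varied more: one of Mcm4 at 4059, 1986, 3748 and 3168 gave 0.28, and one of Mcm6 at 2982, 2078, 3210 and 3083 gave 0.34 with KO above cKO. The next Mcm7 probe set, at 7011, 6623, 7772 and 6280, overlapped (0.04). Dimmer Mcm7 probe sets had KO above cKO, at 3966, 4090, 4581 and 4118 (0.11) and at 3306, 3228, 3879 and 3710 (0.22).

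The licensing factors that load this helicase had values of both signs, and none passed. Orc2, a subunit of the origin recognition complex, read 1637, 1704, 1418 and 1148, or 1670 ± 47.6 against 1283 ± 191 (SD, n = 2 each). Both KO values lay below both cKO values, a log2 fold change of -0.39 (95% interval -0.77 to -0.00, unadjusted p = 0.0482, adjusted p = 0.355). Its other probe sets above the filter gave -0.08 each, and with the mean of all Orc2 probe sets the value was -0.18 (adjusted p = 0.771). Orc1, the ATPase subunit of the same complex, read 1041, 1047, 917 and 1033 (-0.10, adjusted p = 0.857). A dimmer Orc1 probe set at 433, 332, 432 and 374 overlapped and had the other sign (0.08). Cdt1, which brings the helicase to the origin, read 8520, 8255, 9002 and 8890, with KO above cKO (0.09, adjusted p = 0.754), while a second Cdt1 probe set at 4648, 4062, 4624 and 4083 overlapped. Cdc6 read 1283, 1301, 1296 and 1207, with overlapping groups (-0.05).

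Among the genes of origin firing and the fork, Gins2 varied most, but between lines and not between groups. This GINS subunit read 1455, 2950, 1753 and 2703, with means of 2203 ± 1057 for cKO against 2228 ± 672 for KO (SD, n = 2 each). Line 2 stood above line 1 in both groups, and the log2 fold change of KO over cKO was 0.07 with an interval from -0.74 to 0.88. A second Gins2 probe set kept that order with a smaller gap, at 1555, 1986, 1689 and 1960. Its partner Gins1 read 3134, 3602, 3722 and 4172, with both KO values above both cKO values (0.23, adjusted p = 0.548).

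Pcna had the smallest log2 fold change of the 41 genes. The sliding clamp read 16768, 16963, 17270 and 16272, a log2 fold change of -0.01 (95% interval -0.19 to 0.17). Prim1, the catalytic primase subunit, read 4043, 4789, 4843 and 4875 (0.14), and its second probe set read 1775, 1823, 1979 and 2321, so KO lay above cKO in both. Apart from Gins1, the groups overlapped for the other genes of this set. Cdc45, which joins the helicase when an origin fires, read 642, 687, 835 and 683, with KO line 1 alone above the rest (0.18). Pola1, the catalytic subunit of polymerase alpha, read 1139, 1082, 1278 and 1133 (0.12). The 95% interval of the log2 fold change ran from -0.22 to 0.59 for Cdc45.

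The clamp loader subunits did not share a sign. Rfc4 read 3178, 3696, 3511 and 4229, higher in line 2 of both groups (0.17), and its second probe set kept that order at 2402, 2685, 2610 and 3246. Rfc3 read 1680, 1920, 1798 and 1651 (-0.06). Mcm10, which helps to activate the helicase, read 2512, 2658, 2607 and 2748, and the lines differed as much as the groups (0.05).

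Ribonucleotide reductase supplies deoxynucleotides for the fork. Its small subunit gene Rrm2 read 9082, 8529, 9914 and 9332, with KO above cKO (0.13, adjusted p = 0.657). A second Rrm2 probe set at 4478, 3545, 5243 and 4111 had the same sign (0.22), with overlapping groups. The dimmest Rrm2 probe set went the opposite way, at 3809, 3784, 3676 and 3136 (-0.16), so no direction can be given for this gene. The large subunit gene Rrm1 read 3906, 3088, 3205 and 3433, and the groups overlapped.

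Cyclins and Cdks were spread more widely than the other classes, but not more than all genes tested. Of 9 measured, 4 had an interval within 1.5-fold in both directions, against 18 of 21 replication genes, 8 of 11 mitosis genes and 42.1% of all genes. Their line-to-line spread was larger than in those classes too, as described below. The median SE of the cyclins and Cdks was 0.185, the same as over all genes tested. The D-type cyclins, which activate Cdk4 and Cdk6 in G1, did not share a direction. Ccnd1 read 3778, 4098, 3008 and 3616, or 3938 ± 227 against 3312 ± 429 (SD, n = 2 each), with KO below cKO (-0.25, 95% interval -0.58 to 0.07, adjusted p = 0.521). Its other 2 probe sets gave -0.12 and -0.17, and KO lay below cKO in the first only.

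Ccnd2 read 1197, 903, 1402 and 1136 (0.28, 95% interval -0.19 to 0.74, adjusted p = 0.639), and its groups overlapped. The 4 further Ccnd2 probe sets above the filter had the same sign, from 0.32 to 0.40. Ccnd3 read 3047, 2514, 3293 and 2432 (0.03), with overlapping groups. A dimmer Ccnd3 probe set at 148, 88.5, 233 and 131 overlapped too but gave 0.59, and with all Ccnd3 probe sets averaged, 1 of them below the filter, the value was 0.68 (adjusted p = 0.247), so the size of its difference depended on the probe set.

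The E-type cyclins, partners of Cdk2 at the start of S phase, overlapped between groups. Ccne1 read 9271, 7389, 8913 and 5658 (-0.22, 95% interval -0.73 to 0.29), and a second Ccne1 probe set at 4293, 4706, 4134 and 4817 gave -0.01. Ccne2 was the dimmest of the 41 at its lowest array, 396, 233, 388 and 302 (0.17). Cdk2 itself read 827, 670, 810 and 434, so that the low KO mean came from KO line 2, and without that array its log2 fold change was 0.12 in place of -0.32.

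Among the cyclins of S phase and mitosis, Ccnb2 stood apart in size from Ccna2 and Cdk1, and that contrast was not tested. Ccnb2, the gene for cyclin B2, read 4923, 5074, 6326 and 7242, or 4998 ± 106 against 6784 ± 648 (SD, n = 2 each). Every KO value exceeded every cKO value, and the ratio was 1.35 (log2 fold change 0.44, SE 0.12, 95% interval of the ratio 1.12 to 1.63). In limma the adjusted p = 0.131 (0.00656 unadjusted), and 17.6% of all genes tested had a difference at least this large. Only 1 probe set measures it. Ccna2 read 5010, 5762, 4973 and 5409 (-0.05), and Cdk1, the mitotic kinase that cyclin B2 activates, read 7864, 8873, 7417 and 8325 (-0.09). Both overlapped between groups, with line 2 above line 1.

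None of the mitosis genes passed, and Bub1 had the highest value among them. Bub1, a spindle checkpoint kinase, read 2731, 2916, 3647 and 3547, or 2823 ± 131 against 3597 ± 71.0 (SD, n = 2 each). KO lay above cKO, at a ratio of 1.27 (log2 fold change 0.35, SE 0.12, unadjusted p = 0.0248, adjusted p = 0.261). A dimmer second Bub1 probe set read 110, 102, 165 and 151, in the same direction. Bub1b, which encodes the checkpoint protein BubR1, read 2803, 2816, 3347 and 3177 (0.21, adjusted p = 0.539), but its second probe set at 2488, 2829, 2767 and 2943 overlapped. Ttk, the kinase MPS1 of the same checkpoint, read 1347, 1577, 1464 and 1657 (0.10), with overlapping groups. A dimmer Ttk probe set at 178, 208, 286 and 213 had KO above cKO and gave 0.35.

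Nusap1, which encodes a spindle microtubule protein, read 2225, 2432, 2908 and 2725 (0.27, adjusted p = 0.443), with KO above cKO. Kif11, the kinesin that pushes spindle poles apart, read 857, 921, 951 and 1133 (0.22, adjusted p = 0.654), also without overlap, but its other probe sets above the filter gave 0.06 and 0.03, and the latter overlapped. The mitotic kinases overlapped between groups: Plk1 read 3289, 3979, 3318 and 3765 (-0.03), and Aurka read 3629, 4254, 3843 and 3904 (-0.02). Aurkb, the kinase of the chromosomal passenger complex, read 1007, 1068, 1076 and 1184 (0.12), with KO above cKO by little. A dimmer Aurkb probe set at 440, 343, 468 and 491 also had KO above cKO and gave 0.30. Except for Aurkb, these kinases thus gave no separation of the groups.

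Top2a, the topoisomerase that untangles sister chromosomes, read 7098, 7552, 7476 and 7784 (0.06), and Kif20a, a kinesin of cytokinesis, read 1914, 2006, 1858 and 2040 (-0.01). Both were higher in line 2 of each group, and their groups overlapped. Cdc20 read 13522, 13696, 13797 and 14268 (0.04), with KO above cKO by little, while a second Cdc20 probe set gave -0.06.

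By class, the median log2 fold change was 0.07 for the 21 replication genes, -0.05 for the 9 cyclins and Cdks and 0.10 for the 11 mitosis genes, beside 0.01 for all genes tested. Positive values were found in 15 of 21, 4 of 9 and 8 of 11, against 51.4% of all genes. Both KO values lay on the same side of both cKO values for 17 of 41 genes (14 with KO above, 3 with KO below), against 42.6% of all genes (21.4% above and 21.2% below). In the mitosis class 6 of 11 had KO above and 0 had KO below, and among replication genes 7 had KO above and 2 below. These are descriptions of a chosen list, and the difference between classes was not tested. The median of the cyclins and Cdks changed sign with the arrays used, at 0.12 without KO line 2 and -0.11 without cKO line 2, and that of the mitosis genes was 0.03 without KO line 2, 0.03 without cKO line 1, 0.16 without cKO line 2 and 0.18 without KO line 1. For the replication genes it was 0.04 without KO line 1.

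**Figure D2:**
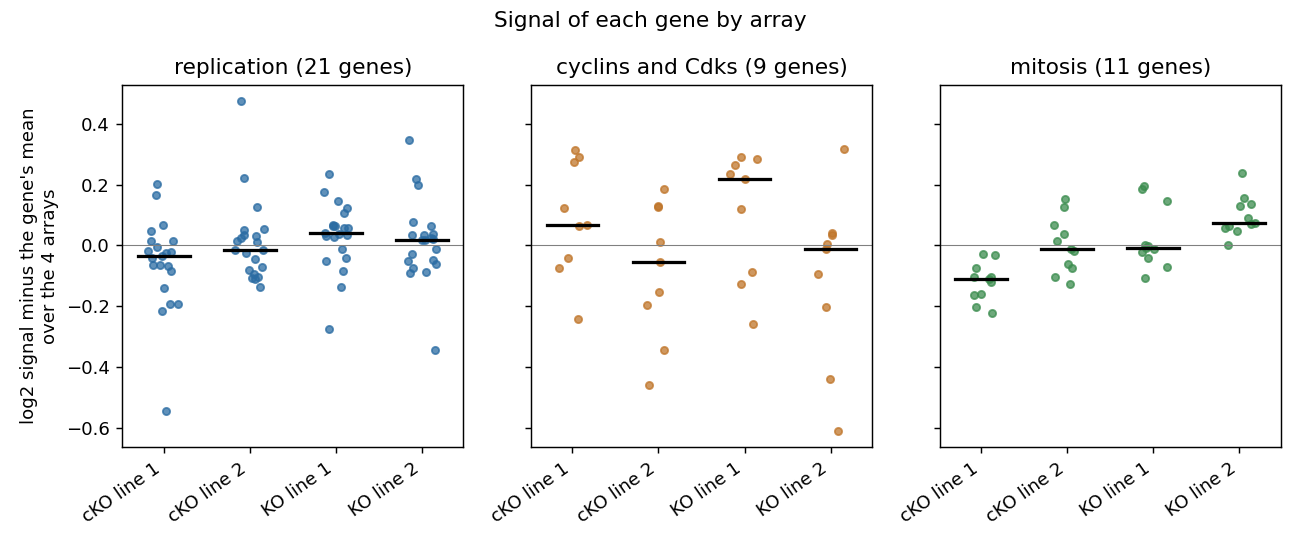
Log2 signal of each gene minus its own mean over the 4 arrays, by class and array; points are genes and black bars are medians over the class. The mitosis median is lowest in cKO line 1 (-0.11) and highest in KO line 2 (0.07), and the cyclin and Cdk median is highest in the line 1 arrays.

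Differences between lines of the same group were as large as those between groups, as they were over all genes tested. The gap between the cKO lines exceeded the difference of KO from cKO for 21 of 41 genes, against 5770 of all 10916 genes tested. The gap within either group exceeded it for 31 of 41, against 68.4% of all genes tested. The median absolute gap was 0.12 for the cKO lines and 0.14 for the KO pair on the log2 scale, against 0.20 and 0.21 for all genes. Of the mitosis genes, 8 of 11 read higher in line 2 than in line 1 in both groups and 0 of 11 the other way, where 33.7% of all genes stood higher in line 2 in both groups and 37.3% in line 1.

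The cyclins and Cdks fell on both sides. Ccnd2, Ccnd3, Ccne1, Ccne2 and Cdk2 read higher in line 1 in both groups, and Ccnd1, Ccna2, Ccnb2 and Cdk1 read higher in line 2. The log2 gap of line 1 over line 2 was 0.75 in cKO and 0.36 in KO for Ccne2, and 0.30 and 0.89 for Cdk2. The order depended on the probe set for Ccne1, whose second probe set stood higher in line 2 in both groups, for Ccnd2, where a dimmer probe set at 239, 245, 281 and 362 did so too, and for Ccnd1, whose probe set at 3642, 3356, 3261 and 3194 stood higher in line 1. The median signal of the arrays was also higher in line 1, and its part in these gaps was not tested.

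**Figure D3:**
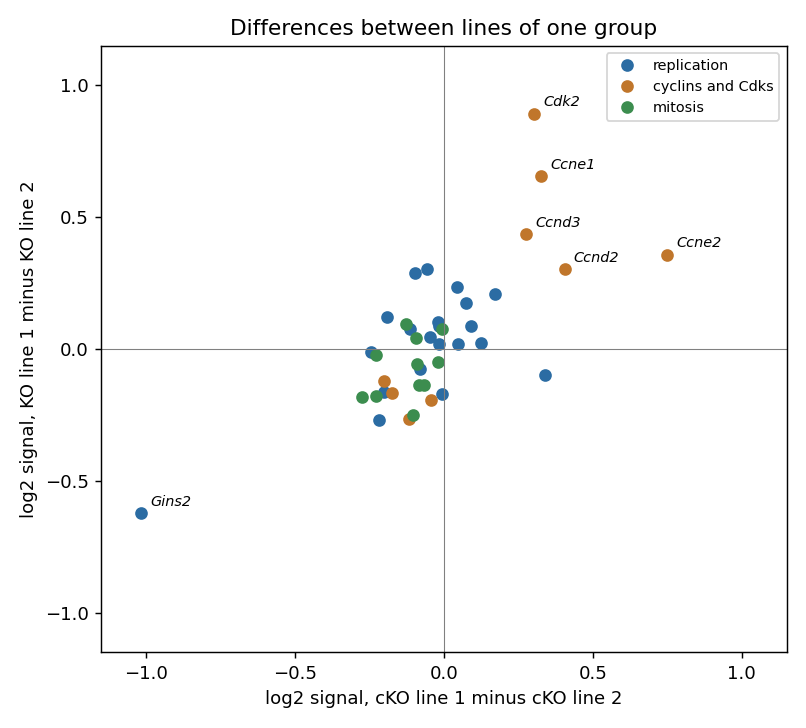
Log2 signal of line 1 minus line 2 in the cKO group (x axis) and in the KO group (y axis) for the 41 genes, with names where a gap is at least 0.4. Gins2 lies at the lower left, higher in line 2 in both groups, and Cdk2, Ccne1, Ccne2, Ccnd2 and Ccnd3 lie at the upper right.

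Further genes of the same pathways were also short of the threshold. Of 39 other replication genes 37 were tested and 0 passed, with a median log2 fold change of 0.06 and 0 at an unadjusted p under 0.05. The smallest p in that list belonged to Rpa3, a subunit of the single-strand binding protein, at 3389, 4037, 4231 and 5401 (0.37, adjusted p = 0.376), and to Pole2, a subunit of polymerase epsilon (0.27, adjusted p = 0.522). Of 40 other mitosis genes 39 were tested and 0 passed, while 7 of 39 (17.9%) had an unadjusted p under 0.05, against 13.8% of all genes. Of the 39, 32 were positive, against 51.4% of all genes, with a median of 0.11. Spc24, a kinetochore subunit, read 2946, 3280, 4300 and 4205, with KO above cKO (0.45, adjusted p = 0.147). Smc4, a condensin subunit, read 3559, 2605, 4147 and 5181 (0.61, adjusted p = 0.2), but its other probe sets gave 0.14 and 0.17.

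Changes that passed the threshold were found among the regulators that act upstream of these genes. Of 28 inhibitors, E2F and RB family members and other regulators, 26 were tested and 2 passed, 1 higher (0.632% of all genes) and 1 lower (1.57% of all genes). E2f2, an activator of S phase genes, rose from 183 and 180 in the cKO lines to 484 and 365 in the KO lines (log2 fold change 1.19, SE 0.21, adjusted p = 0.0425), and its second, dimmer probe set read 70.2, 57.4, 208 and 162. When every probe set was tested on its own in limma, neither E2f2 probe set passed (adjusted p = 0.0559 and 0.0857). Cdkn1c, the gene for the Cdk inhibitor p57, fell from 1279 and 1514 to 643 and 694 (-1.05, SE 0.16, adjusted p = 0.0278). The groups did not overlap for either gene. With cKO line 2 left out both missed the threshold (adjusted p = 0.0603 for E2f2 and 0.0693 for Cdkn1c), and E2f2 did so too with KO line 1 left out (adjusted p = 0.0753) or with dim genes kept (adjusted p = 0.104).

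Other regulators did not pass. The inhibitor gene Cdkn1b (p27) read 489, 489, 702 and 779 (0.59, adjusted p = 0.143), and Cdkn1a (p21) read 2571, 1492, 1327 and 958 (-0.79, adjusted p = 0.26). Cdkn2b (p15), named after its values were seen, read 456, 225, 122 and 104 (-1.47, adjusted p = 0.0962). Cdkn1a and Cdkn2b were highest in cKO line 1, as was the summed signal of the fibroblast markers given above. Cdkn1c had the other order, with 1514 in cKO line 2 and 1279 in cKO line 1. The part of feeder RNA in the values of these 3 lower inhibitors was not tested. Less RNA per cell and fewer cells of a type cannot be told apart in such bulk samples. E2f1 read 761, 609, 1131 and 822 (0.50, adjusted p = 0.358) and E2f4, a repressor E2F, read 1101, 1138, 1211 and 1181 (0.09, adjusted p = 0.858). The D-cyclin kinase genes Cdk4 and Cdk6 had values of -0.11 and 0.05, and the Myc family genes, which drive growth and cyclin expression, -0.30 for Myc and -0.09 for Mycn, all with an adjusted p of at least 0.549.

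**Figure D4:**
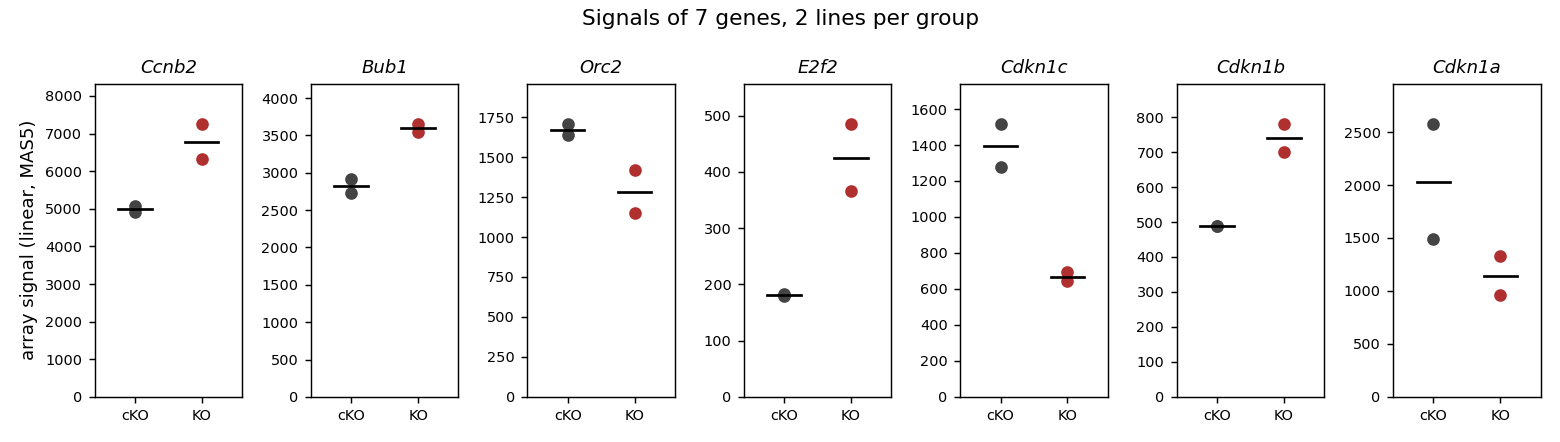
Array signal (linear MAS5 values, axes start at 0) of 7 genes in the 2 cKO lines (grey) and the 2 KO lines (red), with black bars at group means. E2f2 is higher and Cdkn1c lower in KO at an adjusted p under 0.05, while Ccnb2, Bub1, Orc2, Cdkn1b and Cdkn1a have separate groups but did not pass.

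Besides the 41 used, 57 further probe sets were assigned to these genes, and 43 of them lay above the filter. Of those 43, 0 passed when every probe set was tested on its own, and 34 had the sign of the probe set used.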

How the data were processed

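The authors deposited intensity values, 1 MAS5 signal per probe set and array on a linear scale, with MAS5 named in the submitters' processing notes. Version and settings of MAS5 are not given in the sources used here. All 4 arrays shared 1 trimmed mean (2% off both tails), so a common scaling had been applied, and nothing further was normalized. Precision is limited by the number of arrays, 2 per group.

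Probe sets were named through the platform annotation, with symbols updated through Entrez identifiers in a RefSeq gene table (GRCm38.p6). Of 45101 probe sets, 34945 outside the controls named 1 gene, 932 named several and 9160 named none. The brightest probe set by mean log2 signal stood for each of 18193 genes, and the dimmest 40% of genes were left out, leaving 10916. Signals were taken as log2(signal + 4.79), the pseudocount being the 10th percentile of the table. Fold changes are on that log2 scale and understate those of dim genes.

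The groups were compared in R 4.3.3 by limma 3.58.1 (lmFit, eBayes with a variance trend, no block), with Benjamini-Hochberg adjustment over all 10916 genes. The fit was tested on simulated data. Intervals are at 95%. Named genes are the 41 members, 8 regulators chosen by name, called genes of the added lists and the 2 of smallest p in each, and markers. The members and lists were chosen with earlier results of these data known. Alternatives were other pseudocounts, filters, scalings, probe set rules, variance models, thresholds, a line block and each array left out. Plots used Python 3.11.15 with matplotlib 3.10.9.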

Additional observations from a re-analysis of the deposited data

How the results depend on the processing

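At an adjusted p under 0.05, no replication or mitosis gene was called under the 13 other settings run except with the line block, which called 2 (Ccnb2, adjusted p = 0.0169, and Bub1, adjusted p = 0.0453). With the threshold at 0.1 and nothing else changed, 0 were called. The labels do not say that a line number pairs the lines. Deviations of same-numbered lines from their group means correlated across genes (r = 0.52), which with 2 pairs does not establish pairing, and the block moved the count over all genes from 240 to 1048. That count was 147 with no filter, 154 with the lower 60% left out, 129 when a gene's probe sets were averaged, 28 without the variance trend and 428 at an adjusted p under 0.1. With 1 array left out it ran from 228 to 432, the latter without KO line 1. Cdkn1c and E2f2 also lost their calls without the variance trend (adjusted p = 0.0739 and 0.0754).

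With quantile normalization the median of the replication genes was 0.092, and with probe sets averaged that of the mitosis genes was 0.18. With 1 array left out the medians ran from 0.040 to 0.088 for replication genes, from -0.11 to 0.12 for cyclins and Cdks and from 0.030 to 0.18 for mitosis genes. The single line left in a group then took its spread from the other group. Of 532 values of single genes under the alternatives, 28 changed sign, in 18 genes, and none of these was called. Pcna turned to 0.0049 with quantile normalization, and with probe sets averaged Pola1 turned to -0.059 and Aurka to 0.15. With 1 array left out the log2 fold changes that crossed 0 ran from -0.10 to 0.0036 for Cdc6, from -0.0028 to 0.23 for Mcm3, from -0.068 to 0.14 for Mcm4, from -0.0072 to 0.11 for Mcm6, from -0.44 to 0.58 for Gins2, from -0.052 to 0.034 for Pcna, from -0.16 to 0.037 for Rfc3, from -0.24 to 0.10 for Rrm1, from -0.19 to 0.25 for Ccnd3. They also ran from -0.55 to 0.11 for Ccne1, from -0.21 to 0.54 for Ccne2, from -0.15 to 0.050 for Ccna2, from -0.77 to 0.12 for Cdk2, from -0.17 to 0.10 for Plk1, from -0.14 to 0.094 for Aurka, from -0.018 to 0.21 for Ttk, from -0.077 to 0.058 for Kif20a. The cause of these changes was not tested.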
